A study of Mus musculus with 21 samples.

Results

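The genes described here are the 4 neuregulins (*Nrg1*, *Nrg2*, *Nrg3* and *Nrg4*) and the 4 ErbB receptors (*Egfr*, *Erbb2*, *Erbb3* and *Erbb4*). They were chosen by symbol, matched through the Ensembl identifiers of the count table, and make up 8 of its 52550 genes. All 8 were matched, and all 8 passed the filter on low counts in both fits used below.

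RNA from mouse inner ear cells was sequenced in 21 libraries, which form 7 groups of 3 replicates. Spiral ganglion neurons (SGNs), the neurons that carry sound signals from the cochlea to the brain, were collected at one embryonic stage, E15.5, and at the postnatal days P1, P8, P14 and P30. P12 hair cells (HCs), the sensory cells, and P8 glial cells of the cochlea serve as reference cell types. The question put to these data is which cells of the ganglion and the sensory epithelium carry the ligands and which the receptors, and how the neuronal levels change with age. The labels give the strain C57BL/6 for the groups, and a tdTomato reporter behind a floxed stop (Rosa26-CAG-loxp-stop-loxp-tdTomato/+) marked the picked cells. SGNs were labelled through ShhCre/+. HCs were labelled through Atoh1-CreER+ after tamoxifen and came from cochlear and vestibular organs together, so that they mix several types of HC. Glial cells were labelled through vGlut3-iCreER/+ after tamoxifen and were taken from the dissected ganglion area, since the same driver also labels inner HCs. The labels describe manual sorting for each of these groups, where the methods of the study describe sorting by flow cytometry for HCs. SGN libraries were made from 69 to 195 cells, glial libraries from 86 to 125 and HC libraries from about 1200. The age of each cell type is fixed, so that age and cell type cannot be told apart between HCs and the other groups. The labels do not say whether replicates came from separate animals, and the p-values measure only the spread between these libraries.

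Neuregulins are ligands of the epidermal growth factor (EGF) family that bind ErbB receptor tyrosine kinases on neighboring cells. *Erbb3* encodes a receptor with a weak kinase that binds neuregulins and signals mainly as a partner of *Erbb2*, whose product has a strong kinase but no known ligand of its own. Neuregulin-1 on axons drives the survival, migration and myelination of Schwann cells through this receptor pair, while *Erbb4* encodes a neuregulin receptor with an active kinase and *Egfr* the receptor for EGF and related ligands. In the cochlea, neuregulin and ErbB signaling between SGNs, glial cells and supporting cells is known to be needed for the survival of the neurons.

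Libraries held between 10368240 and 37287489 counts on genes. The summed level of 5 SGN markers lay between 334 and 1204 TPM (counts scaled to gene length and to the library total) in SGN libraries, between 5.97 and 11.4 TPM in HC libraries and between 8.34 and 94.3 TPM in glial libraries. The 4 HC markers summed to between 1288 and 1441 TPM in HCs, and the glial markers *Sox10* and *Foxd3* to between 189 and 341 TPM in glial cells. Among these marker lists, that of the labelled cell type thus had the highest sum in each library. In P8 SGN replicates 1, 2 and 3, however, 6 myelin genes of Schwann cells summed to 1474, 1447 and 801 TPM. These sums exceeded those of the SGN markers in the same libraries, 646, 1034 and 574 TPM. Several libraries stood apart. Blood markers summed to 176 TPM in E15.5 SGN replicate 1 and endothelial markers to 64.3 TPM in P1 SGN replicate 1. Connective tissue markers summed to 129 TPM in P1 SGN replicate 1 and to 148 TPM in P8 SGN replicate 1. Glial replicate 1 held 94.3 TPM of the SGN markers, against 8.34 and 8.88 TPM in glial replicates 2 and 3. P14 SGN replicate 1 held 107 TPM of the HC markers and 62.2 TPM of 4 supporting cell markers, each the highest sum among the 15 SGN libraries.

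Positions are those of GENCODE M21 on GRCm38. *Nrg1* (ENSMUSG00000062991) spans chr8:31814551-32884029 on the minus strand, *Nrg3* (ENSMUSG00000041014) spans chr14:38368952-39473088 on the minus strand and *Erbb4* (ENSMUSG00000062209) spans chr1:68032186-69108059 on the minus strand. These 3 loci span 1069479, 1104137 and 1075874 bases. *Erbb3* (ENSMUSG00000018166) spans chr10:128567523-128589652 on the minus strand, and *Erbb2* (ENSMUSG00000062312) spans chr11:98412470-98437716 on the plus strand. *Egfr* (ENSMUSG00000020122) lies on the same chromosome at chr11:16752203-16918158 on the plus strand, and *Nrg4* (ENSMUSG00000032311) at chr9:55220222-55326844 on the minus strand. The identifier of *Nrg2* is ENSMUSG00000060275. Counts were summed over the exons of a gene, so that the transcript forms of *Nrg1*, which differ in their first exons and their receptor-binding domains, were not told apart. *Nrg4* shares 368 exonic bases with *Fbxo22* on the opposite strand, a gene with up to 2814 counts in a library, and *Erbb2* shares 9 with *Mien1*. *Nrg1* shares 482 exonic bases with the noncoding gene Gm26578, which had at most 64 counts. The strand setting of the counting is not given in the sources used here, so *Nrg4* values are uncertain and reads in the shared bases of the others cannot be assigned.

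The bases before the annotated start are shown for some of the genes that had an entry in the RefSeq table (GRCm38.p6). These are *Nrg3*, the neuregulin that fell with age in SGNs, *Erbb2*, high in glial cells, and *Egfr* and *Erbb4*, high in HCs. Each window holds 250 bases and reads 5′ to 3′ on the strand of the gene, with CG dinucleotides in capitals. In all 5 of the 8 genes were matched in that table, all but *Nrg1*, *Nrg2* and *Erbb3*, and the window of *Nrg4* is not shown.
Nrg3, chr14:39473089-39473338, minus strand: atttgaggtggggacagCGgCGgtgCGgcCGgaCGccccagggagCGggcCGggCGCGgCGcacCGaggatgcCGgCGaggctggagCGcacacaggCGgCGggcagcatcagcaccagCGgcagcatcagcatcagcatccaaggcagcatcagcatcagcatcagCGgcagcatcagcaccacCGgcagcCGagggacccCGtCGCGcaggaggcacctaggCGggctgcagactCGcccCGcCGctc
Erbb2, chr11:98412234-98412483, plus strand: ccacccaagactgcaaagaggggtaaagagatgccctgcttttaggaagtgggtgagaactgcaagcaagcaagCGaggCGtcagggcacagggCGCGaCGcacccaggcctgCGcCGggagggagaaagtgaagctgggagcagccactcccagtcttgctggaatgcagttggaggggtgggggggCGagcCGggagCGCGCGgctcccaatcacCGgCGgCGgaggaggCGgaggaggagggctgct
Egfr, chr11:16751953-16752202, plus strand: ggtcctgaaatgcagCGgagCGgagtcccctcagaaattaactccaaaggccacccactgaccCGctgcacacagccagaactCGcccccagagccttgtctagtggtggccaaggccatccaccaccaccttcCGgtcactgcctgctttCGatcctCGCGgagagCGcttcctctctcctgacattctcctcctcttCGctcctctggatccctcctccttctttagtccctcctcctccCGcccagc
Erbb4, chr1:69108060-69108309, minus strand: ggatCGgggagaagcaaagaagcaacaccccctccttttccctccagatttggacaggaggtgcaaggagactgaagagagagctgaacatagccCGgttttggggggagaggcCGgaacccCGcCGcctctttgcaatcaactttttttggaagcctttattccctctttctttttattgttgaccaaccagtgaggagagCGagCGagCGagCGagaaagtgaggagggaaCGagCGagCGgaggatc

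The *Nrg3* window was the richest of these 4 in G and C, with 72.4% of its bases and 27 CG dinucleotides, against medians of 52.4% and 6 over 32851 windows of the same length. The *Erbb2* window held 66% G and C and 16 CG dinucleotides, the *Egfr* window 60.8% and 11, and the *Erbb4* window 54% and 12. A search of both strands found the GC box GGGCGG in the *Egfr* window and not in the other three, where 32.7% of all windows held it. None of the 4 windows held TATAAA, which 12.4% of all windows held, and none held ACAAAG or ACAATG, short forms of the motif bound by SOX factors, which 25.2% of all windows held. The E-box CANNTG, which 66.2% of all windows held, was found in the *Erbb2* window and not in those of *Nrg3*, *Egfr* and *Erbb4*. These matches describe the letters only.

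*Nrg1* and *Nrg3* made up nearly all neuregulin mRNA of the SGNs at each age, and neither was high in HCs or glial cells. *Nrg1* was the most abundant of the 8 genes in SGNs, at 70.4 ± 12.2 TPM at P1 and 48.1 ± 15.1 TPM at P14, the highest and the lowest of the 5 age means (SD, n = 3). Its level differed between ages in none of the main comparisons below, while *Nrg3* fell more than 3-fold between E15.5 and P30.

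*Nrg1* encodes the ligand best known for the growth and myelination of Schwann cells. Its 3 libraries held 62.3, 26.3 and 79.1 TPM at E15.5, 60.9, 66.1 and 84.2 TPM at P1, and 39.8, 81.4 and 32.6 TPM at P8. They held 55.8, 30.7 and 57.8 TPM at P14 and 46.4, 66.2 and 37.4 TPM at P30. The ranges of the ages overlapped but for P1 and P14, where each P1 library (60.9 TPM or more) lay above each P14 library (57.8 TPM or less). P1 and P14 were not compared in a test. HC libraries held 1.58, 0.68 and 0.787 TPM, and glial libraries 3.67, 0.593 and 0.185 TPM. Every SGN library thus lay above every HC and glial library. The highest glial value was that of glial replicate 1, the library with the most SGN marker RNA.

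*Nrg3* encodes a ligand of ErbB4. Its libraries held 47.8, 18.7 and 35.4 TPM at E15.5 and 30.8, 28.6 and 50.7 TPM at P1. At P8 they held 14.6, 21.5 and 9.6 TPM, at P14 11.6, 6.62 and 12.5 TPM and at P30 8.59, 13.5 and 4.65 TPM. Each library at P30 lay below each library at E15.5 and P1. No count was found in the 3 HC libraries, and glial libraries held 0.887, 0.0571 and 0.0623 TPM, again with the highest value in glial replicate 1.

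**Figure D1:**
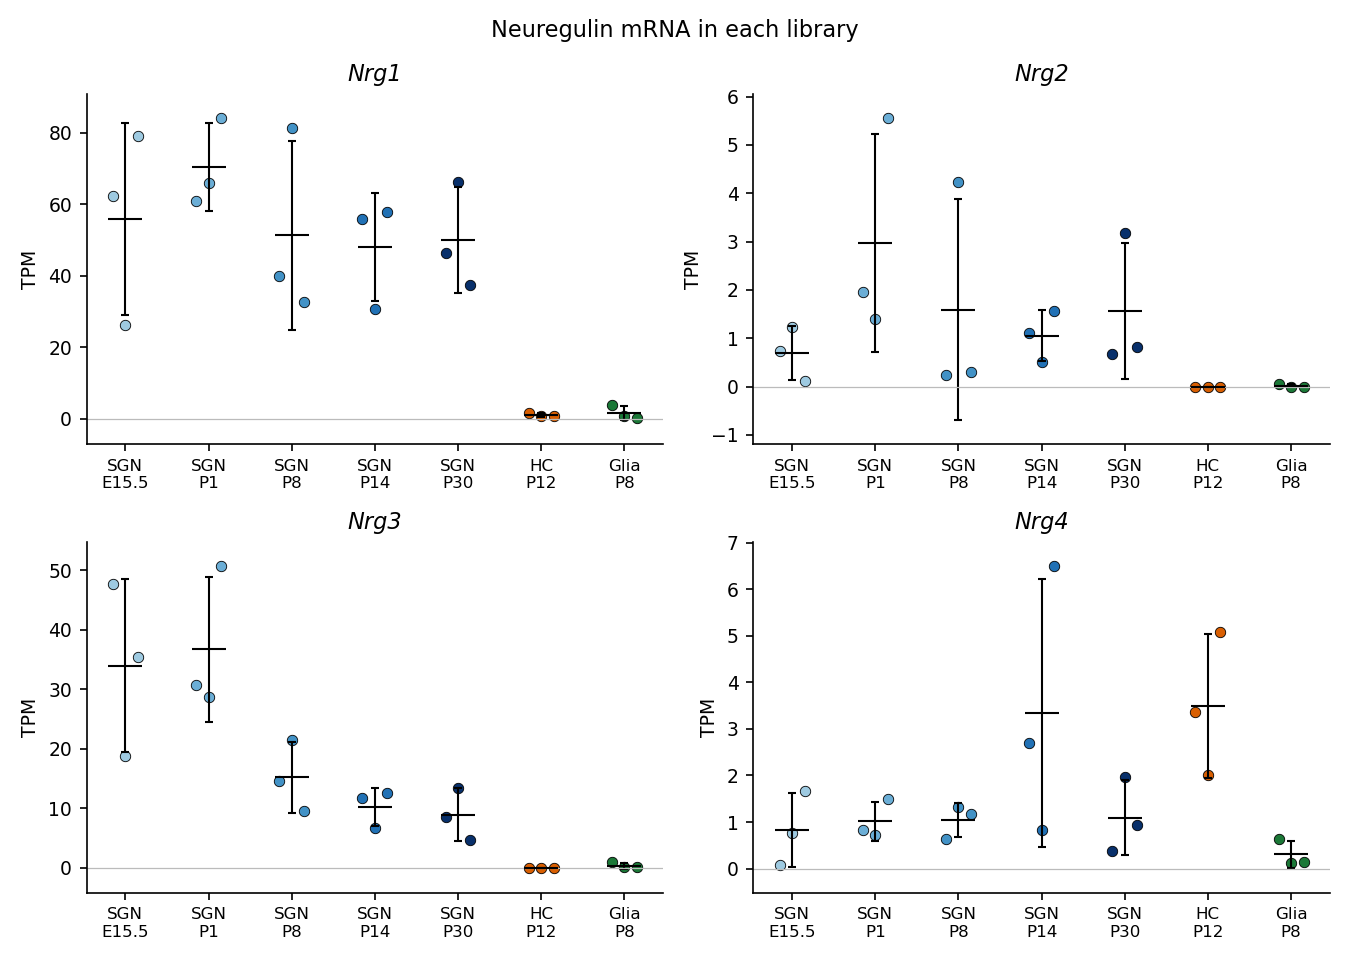
Neuregulin mRNA in TPM (vertical axis) in each of the 21 libraries (points), by group (horizontal axis), with the mean and SD of the 3 libraries of a group. *Nrg1* stayed between 26.3 and 84.2 TPM in SGNs, *Nrg3* was lower at P8, P14 and P30 than at E15.5 and P1 in mean, and *Nrg2* and *Nrg4* did not exceed 6.49 TPM in any library.

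*Nrg2*, whose product binds ErbB3 and ErbB4, was low in SGNs (0.114 to 5.56 TPM, median 1.11, n = 15). It had no counts in HCs and 3, 0 and 0 counts in glial libraries. *Nrg4* encodes a ligand of ErbB4 also known as a hormone of brown fat. It had the highest TPM of the neuregulins in each HC library, on 78 to 205 counts. Its values are uncertain, since it shares exonic bases with *Fbxo22* on the opposite strand. HC libraries held 3.36, 2.01 and 5.09 TPM of *Nrg4*, SGN libraries between 0.0851 and 6.49 TPM (median 0.93), and glial libraries 0.64, 0.128 and 0.14 TPM. SGN and HC values of *Nrg4* overlapped. Among the neuregulin transcripts of a library, *Nrg4* took 76.4% ± 9.43 in HCs, against 0.889% ± 0.155 to 4.74% ± 3.18 over the SGN ages (SD, n = 3), on a summed neuregulin level of 4.5 ± 1.64 TPM in HCs and 61.6 ± 21.1 to 111 ± 26.8 TPM in SGNs.

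Between E15.5 and P30, 3 of the 8 genes differed more than 2-fold with a Benjamini-Hochberg (BH) adjusted p under 0.05 in limma-voom, all lower at P30, where 34.6% of the 15113 genes tested passed in either direction, 16.2% as lower and 18.4% as higher. The median log2 fold change was -1.19 over the 8 genes and -0.01 over all genes. With library size as the only scaling, 1698 genes were higher and 3973 lower at P30, against 2778 and 2446 with TMM scaling, and the same 3 members passed. *Nrg3* was one of the 3, at a log2 fold change of -1.78 (standard error (SE) 0.23, limma-voom adjusted p = 1.52e-05). It fell in each alternative run, by between -1.59 and -2.27 on the log2 scale. *Nrg1* changed by 0.10 (SE 0.17, limma-voom adjusted p = 0.656), and by -0.38 with library size only, a setting in which the median over all genes moved to -0.49. Fewer cells of a kind and less RNA per cell cannot be told apart in these pooled cells.

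Between neighboring ages, none of the neuregulins passed. From E15.5 to P1, 0 of the 8 genes passed in limma-voom (8.26% of all genes tested did, 5.08% as higher and 3.18% as lower), 1 had an unadjusted p under 0.05, and edgeR and DESeq2 called 0 and 0. From P1 to P8, 1 of the 8 passed (7.44% of all genes, 4.29% as higher and 3.15% as lower), which was *Erbb4* and is described with the receptors. *Nrg3* changed by -0.86 over the same step (SE 0.20, limma-voom adjusted p = 0.0111), which was under 2-fold. From P8 to P14, 0 of the 8 passed (0.536% of all genes, 0.251% as higher and 0.285% as lower), 1 had an unadjusted p under 0.05, and edgeR and DESeq2 each called 0. From P14 to P30, 0 of the 8 passed (0.0596% of all genes, 0.0331% as higher and 0.0265% as lower), 2 had an unadjusted p under 0.05, edgeR called 0 and DESeq2 called 1, which was *Erbb3*. In a test for a difference among any of the 5 ages, *Nrg3* (adjusted p = 1.76e-05, limma's moderated F) and *Erbb3* (adjusted p = 0.0201) passed, 2 of 8 where 37.8% of all genes did. With a block for the replicate number, *Erbb2* and *Erbb4* passed as well, as they did in DESeq2. The adjusted p of *Nrg1* in that test was 0.343 with limma, and 0.0178 with library size as the only scaling.

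The balance between *Nrg1* and *Nrg3* was measured inside each library, which no scaling between libraries can change. It lay further toward *Nrg1* in the libraries of the older ages. The ratio of *Nrg1* to *Nrg3* TPM was 1.3, 1.4 and 2.23 in the E15.5 libraries and 1.98, 2.31 and 1.66 at P1. P8 libraries gave ratios of 2.72, 3.8 and 3.39. Those of P14 libraries were 4.79, 4.64 and 4.62, and those of P30 libraries 5.4, 4.92 and 8.06. From P1 onward, each age lay above the age before it without overlap, while E15.5 and P1 overlapped. The share of *Nrg1* among neuregulin transcripts was 60% ± 6.91 at E15.5 and 82.1% ± 3.73 at P30, and that of *Nrg3* was 37.8% ± 6.57 and 13.9% ± 2.9 (SD, n = 3). On the log2 scale the ratio was 1.90 higher at P30 than at E15.5 (two-sided exact permutation test, p = 0.1, the smallest that 3 against 3 libraries allow, BH-adjusted p = 0.125 over 5 comparisons of ages). The design cannot reach a p of 0.05 for this ratio.

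**Figure D2:**
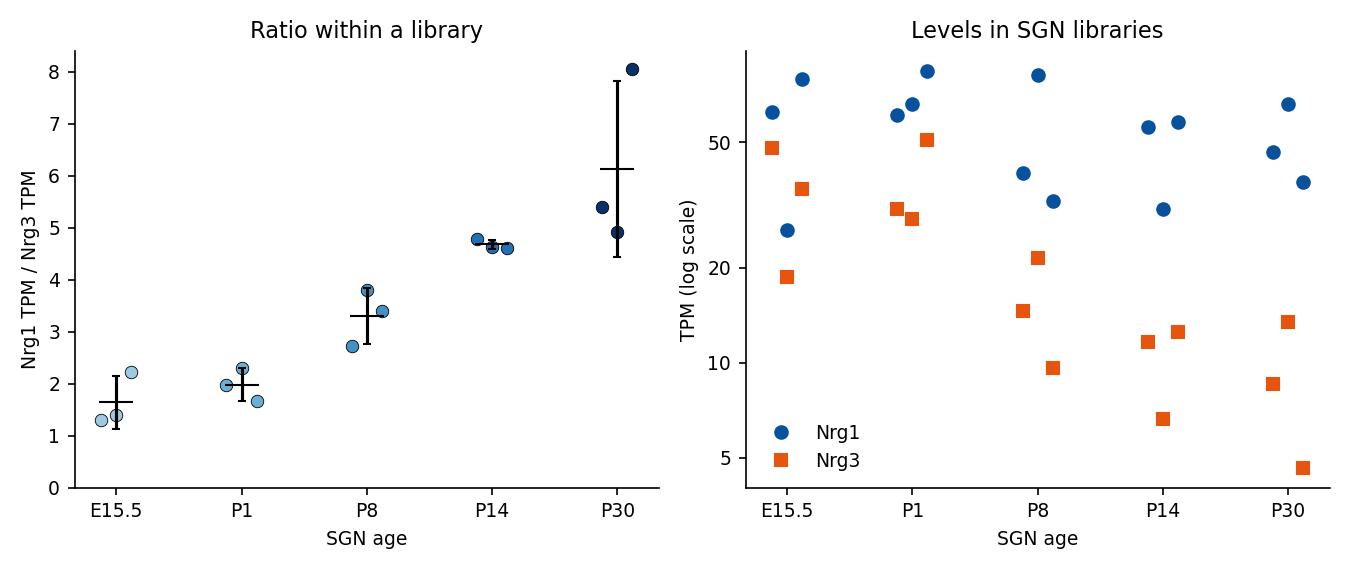
*Nrg1* to *Nrg3* ratio of TPM within each SGN library with mean and SD of 3 libraries (left), and the TPM of both genes on a log axis (right), by SGN age. The ratio lay between 1.3 and 2.31 at E15.5 and P1 and between 4.62 and 8.06 at P14 and P30. The *Nrg1* points stayed between 26.3 and 84.2 TPM, while the *Nrg3* points moved down.

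Against glial cells, the mean of the SGN ages was higher for 3 ligands and lower for 2 receptors. These 5 of the 8 genes differed more than 4-fold with an adjusted p under 0.01, where 24.7% of the 17531 genes tested did, 14.3% as higher and 10.4% as lower in SGNs. *Nrg1* was 44.1-fold higher in SGNs (log2 5.46, SE 0.64, limma-voom adjusted p = 6.03e-07) and *Nrg3* 75.3-fold higher (log2 6.23, SE 0.75, adjusted p = 7.95e-07 with limma-voom). *Nrg2* was at least 11.7-fold higher, a bound set by 3 counts in each glial library, and passed with an adjusted p of 0.000484 (limma-voom), but not with sample quality weights (adjusted p = 0.071). Without glial replicate 1, the library with the most SGN markers, *Nrg1* was 115-fold and *Nrg3* 189-fold higher. Without glial replicate 3, they were 23.5-fold and 48.7-fold higher, and without glial replicate 2 *Nrg3* was 45.4-fold higher. The part of SGN RNA in glial replicate 1 in these values was not tested. The median log2 fold change was 0.83 over the 8 genes, also with *Nrg2* at its bound, and 0.22 over all genes.

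Against HCs, the mean of the SGN ages was also higher for *Nrg1*, *Nrg2* and *Nrg3*, and 5 of the 8 genes passed, where 26.8% of all genes tested did, 10.5% as higher and 16.2% as lower in SGNs. *Nrg1* was 137-fold higher (log2 7.10, SE 0.72, limma-voom adjusted p = 4.57e-08). *Nrg3* was at least 465-fold higher (limma-voom adjusted p = 4.45e-10) and *Nrg2* at least 13.8-fold higher (limma-voom adjusted p = 1.57e-05), both against 3 counts in each HC library. *Nrg4* differed by -0.43 (SE 0.59, limma-voom adjusted p = 0.566) between SGNs and HCs and by 1.62 (SE 0.87, limma-voom adjusted p = 0.128) between SGNs and glial cells. The median log2 fold change was -0.37 over the 8 genes, also with bounds, and 0.02 over all genes. The comparisons with glial cells and with HCs share their SGN libraries.

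At the only age at which both were collected, P8, the ligands stood the same way. *Nrg1* was 41.5-fold higher in P8 SGNs than in P8 glial cells (log2 5.38, SE 0.65, limma-voom adjusted p = 2.26e-06) and *Nrg3* 67.5-fold (log2 6.08, SE 0.76, limma-voom adjusted p = 3.29e-06). Without glial replicate 1 these were 108-fold and 169-fold, and without glial replicate 3 they were 22.1-fold and 43.6-fold. *Nrg3* was 40.7-fold higher without glial replicate 2. *Nrg2* was at least 9.68-fold higher (limma-voom adjusted p = 0.00509). That call was lost without P8 SGN replicate 2, the only P8 library with more than 1 TPM of *Nrg2*, without glial replicate 2 or 3, and with sample quality weights (adjusted p = 0.117). With *Erbb2* and *Erbb3*, 5 of the 8 genes passed at P8, where 20.9% of all genes did, 13.4% as higher and 7.53% as lower in SGNs.

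**Figure D3:**
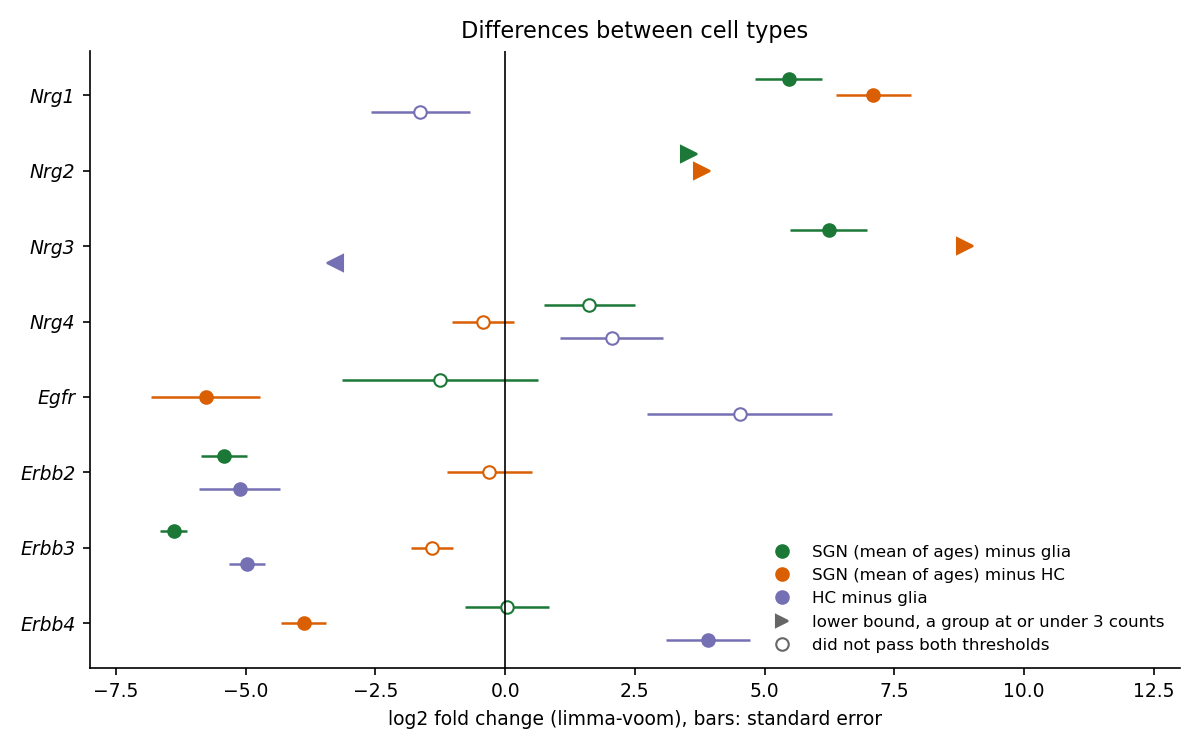
Log2 fold changes (horizontal axis) of the 8 genes between cell types, from limma-voom with bars of 1 SE. Filled circles differed more than 4-fold with an adjusted p under 0.01, open circles did not, and triangles are lower bounds where 1 group had at most 3 counts in each library. *Nrg1*, *Nrg2* and *Nrg3* lay to the right in SGNs, *Erbb2* and *Erbb3* to the left against glial cells, and *Egfr* and *Erbb4* to the left against HCs.

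The receptors were low in SGNs, and each reference cell type had receptors of its own. *Erbb3* was the most abundant receptor in glial cells and made up 78.9% ± 5.71 of their ErbB transcripts. HCs held *Erbb3*, *Egfr*, *Erbb4* and *Erbb2*, at 40.2% ± 9.4, 36.5% ± 9.34, 14.3% ± 5.26 and 8.93% ± 3.74 of the ErbB transcripts (SD, n = 3). The 4 receptors together summed to 187 ± 34.2 TPM in glial cells and 39.5 ± 8.67 TPM in HCs, against 0.95 ± 0.727 TPM in P30 SGNs and 9.39 ± 8.6 TPM in P14 SGNs, the lowest and the highest age means.

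*Erbb3* libraries of glial cells held 147, 162 and 130 TPM. Those of HCs held 25.2, 12.5 and 11.5 TPM. SGN libraries of E15.5 held 4.18, 1.88 and 7.39 TPM, those of P1 1.93, 1.98 and 4.65 TPM, those of P8 6.39, 4.26 and 4.2 TPM, those of P14 7.82, 0.84 and 7.18 TPM and those of P30 0.964, 0.419 and 0.0631 TPM. In TPM the cell types did not overlap, with glial cells highest, HCs next and SGNs lowest. In CPM, which scales counts to the library total alone, SGNs and HCs overlapped. E15.5 SGN replicate 3 (29.3 CPM) lay above HC replicates 2 and 3 (28.1 and 25.7 CPM). *Erbb3* was 83.5-fold lower in the mean of SGNs than in glial cells (log2 -6.38, SE 0.26, limma-voom adjusted p = 6.39e-14), and 31.4-fold lower in HCs than in glial cells (log2 -4.97, SE 0.35, limma-voom adjusted p = 2.04e-09). Between SGNs and HCs it differed by -1.41 (SE 0.40, limma-voom adjusted p = 0.00554), which was under 4-fold.

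*Erbb2* held 37.8, 59 and 16.7 TPM in glial libraries and 5.9, 1.71 and 3.33 TPM in HC libraries. SGN libraries held between 0.164 and 7.07 TPM (median 0.968), with the highest value in P14 replicate 1. Glial values lay above those of both other cell types, whose ranges overlapped. *Erbb2* was 42.9-fold lower in SGNs than in glial cells (log2 -5.42, SE 0.44, limma-voom adjusted p = 2.64e-09) and 34.7-fold lower in HCs (log2 -5.12, SE 0.78, limma-voom adjusted p = 2.52e-05). SGNs and HCs differed by -0.31 (SE 0.82, limma-voom adjusted p = 0.774). At P8, the difference between SGNs and glial cells was -4.70 for *Erbb2* (SE 0.68, adjusted p = 1.51e-05, limma-voom), and -5.43 without P8 SGN replicate 1. It was -5.24 for *Erbb3* (SE 0.35, adjusted p = 1e-09, limma-voom).

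**Figure D4:**
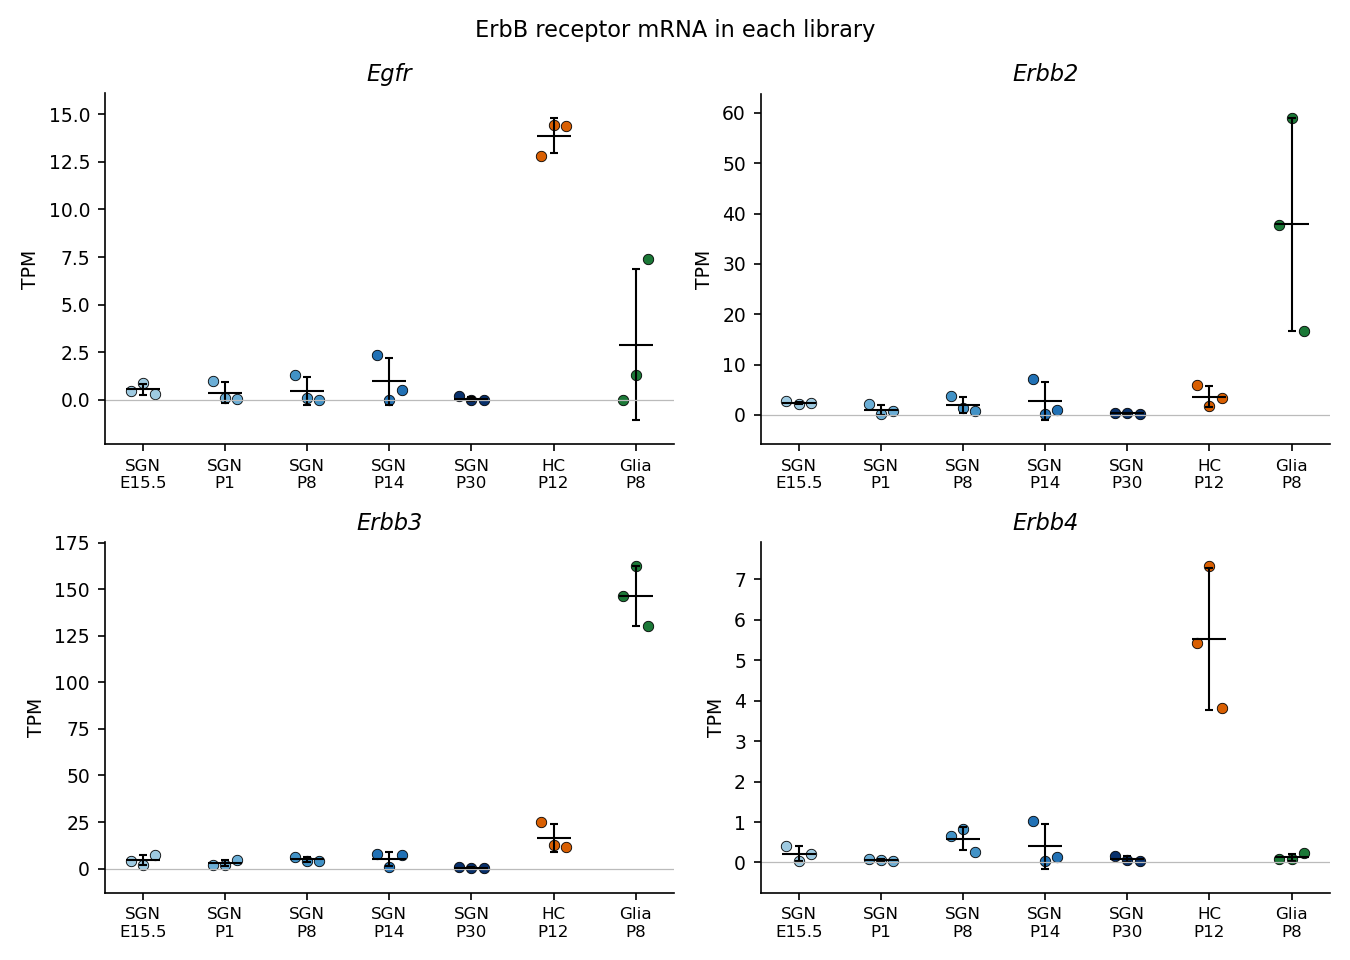
ErbB receptor mRNA in TPM (vertical axis) in each of the 21 libraries (points), by group (horizontal axis), with the mean and SD of the 3 libraries of a group. *Erbb2* and *Erbb3* were highest in glial cells, at 16.7 to 59 and 130 to 162 TPM, and *Egfr* and *Erbb4* in HCs, at 12.8 to 14.5 and 3.81 to 7.33 TPM.

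Both receptors of the glial pair were lower in SGN libraries at P30 than at E15.5. *Erbb3* changed by -3.37 (SE 0.96, limma-voom adjusted p = 0.01). It passed in each of the alternatives run, at -4.39 without P30 replicate 1 and -2.53 without P30 replicate 3. In the test over any age, *Erbb3* no longer passed when P30 replicate 2 or 3 was left out (highest limma adjusted p = 0.0809). *Erbb2* changed by -2.85 (SE 1.06, limma-voom adjusted p = 0.041). That call was lost without E15.5 replicate 1 or 2, without any 1 of the P30 replicates and with no filter on low counts, at adjusted p values of 0.0606 to 0.107.

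The summed *Sox10* and *Foxd3* level and *Erbb3* were ordered alike over the means of most SGN ages. The 6 myelin genes of Schwann cells had another order. As a percentage of the glial mean, the summed *Sox10* and *Foxd3* level was lowest at P30 (0.354% ± 0.401) and P1 (0.976% ± 0.31) and higher at E15.5 (3.05% ± 3.37), P14 (3.62% ± 2.84) and P8 (6.11% ± 2.78; SD, n = 3). *Erbb3* on the same scale was 0.329% ± 0.31 at P30, 1.95% ± 1.07 at P1, 3.06% ± 1.89 at E15.5, 3.38% ± 0.854 at P8 and 3.61% ± 2.64 at P14, the same order of the ages but for P8 and P14. *Erbb2* was 0.824% ± 0.338 at P30, 2.75% ± 2.63 at P1, 5.26% ± 4.27 at P8, 6.44% ± 0.594 at E15.5 and 7.27% ± 9.93 at P14. In the E15.5 libraries it stayed between 5.92% and 7.08%, where the glial markers ran from 0.75% to 6.92%. *Foxd3* was at 0 in P30 replicate 2, *Sox10* was at 0 in no SGN library, and 6 myelin genes of Schwann cells summed to between 7.62 and 1474 TPM. As a percentage of the glial mean, that myelin sum was 1.25% ± 1.4 at P30, 1.58% ± 0.834 at E15.5 and 1.6% ± 0.829 at P1. It was 5.72% ± 4.83 at P14 and 15.1% ± 4.65 at P8. P30 replicate 3 had the lowest *Erbb3* level, the lowest glial marker sum and the lowest myelin sum of the 15 libraries. P14 replicate 1 had the highest *Erbb2* and *Erbb3* levels and a glial marker sum of 19.2 TPM, below those of P8 replicate 1 (26.2 TPM) and E15.5 replicate 3 (19.7 TPM). The part of glial RNA in the SGN values of both receptors was not tested.

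**Figure D5:**
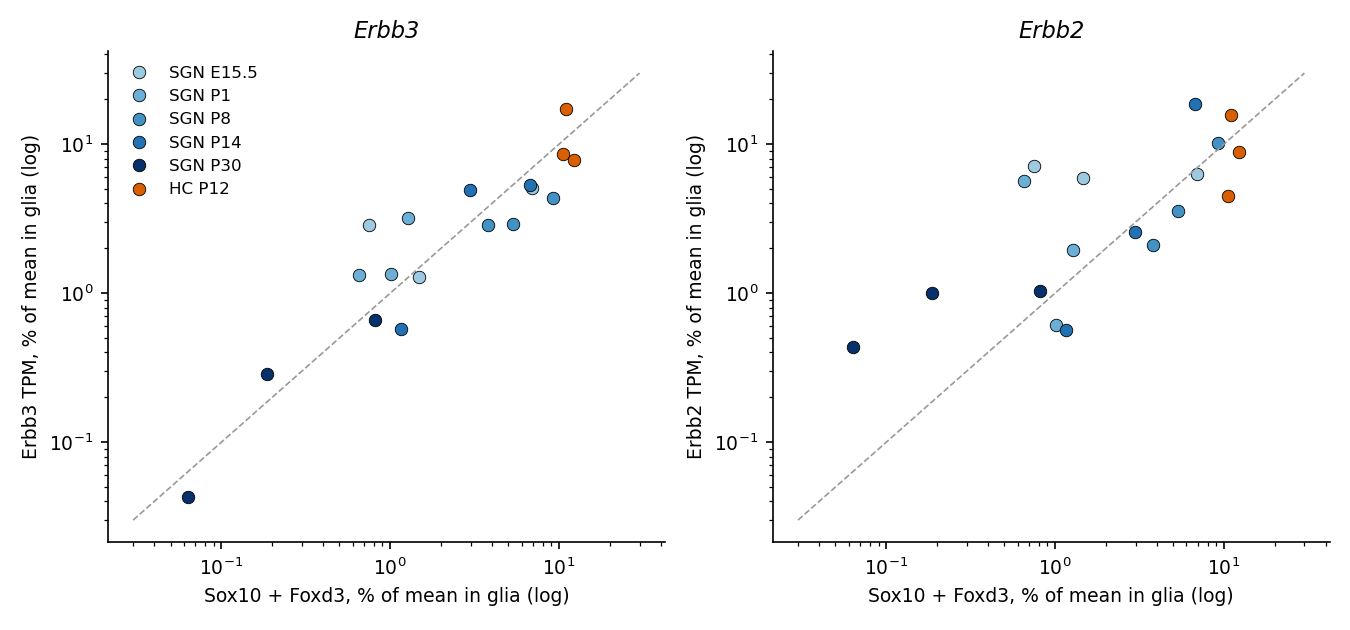
*Erbb3* (left) and *Erbb2* (right) in SGN and HC libraries as a percentage of their mean in glial cells (vertical axis, log scale), against the summed level of *Sox10* and *Foxd3* as a percentage of its mean in glial cells (horizontal axis, log scale). Each point is 1 library and the dashed line marks equal percentages. *Erbb3* ran from 0.0431% to 5.34% in SGN libraries, where the glial markers ran from 0.0635% to 9.2%.

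In HCs, *Erbb3* stood at 11.2% ± 5.21 of its glial mean and the glial marker sum at 11.3% ± 0.86 (SD, n = 3). Nearly all of that sum was *Sox10*. *Sox10*, a transcription factor of glial and other neural crest cells that is also known in the inner ear epithelium, was at 28.3 to 34.8 TPM in HC libraries, against 115 to 240 TPM in glial cells. *Foxd3* was at 0 to 2.96 TPM in HC libraries, against 73.5 to 102 TPM in glial cells. HC replicate 1 held the most *Erbb3* and the most myelin RNA, at 245 TPM of the 6 myelin genes against 26.6 and 18.2 TPM in the other replicates. The 4 melanocyte markers, genes of another type of neural crest cell, summed to between 18.7 and 27.9 TPM in HCs, with *Dct* at 13.3 to 20.2 TPM, against 3.86 to 14.2 TPM in glial cells and at most 2.06 TPM in SGNs. *Pmel* went the other way, with means of 4.08 TPM in HCs and 8.91 TPM in glial cells. *Tyr* was at 0.17 to 0.616 TPM and *Mlana* at 0 to 5.52 TPM in HCs, and neither had counts in glial cells. The part of other cells in the HC value of *Erbb3* was not tested.

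*Egfr* was higher in HCs than in SGNs. HC libraries held 12.8, 14.5 and 14.4 TPM, and SGN libraries between 0 and 2.35 TPM (median 0.187). It was 54.5-fold lower in SGNs than in HCs (log2 -5.77, SE 1.05, limma-voom adjusted p = 9.44e-05). edgeR and DESeq2 gave 15.7-fold and 18.6-fold with adjusted p values of 0.0107 and 0.0299, which did not pass 0.01. Glial libraries differed widely, at 0, 1.28 and 7.42 TPM, and all lay below the HC libraries in TPM. In CPM, glial replicate 3 (76.4) lay above the HC libraries (58.7, 61.2 and 60.3). HCs were 4.52 higher than glial cells on the log2 scale (SE 1.79, limma-voom adjusted p = 0.0444), which did not pass 0.01. Without glial replicate 1, which had no *Egfr* counts, this difference was 0.53, and it was 0.55 in edgeR and 0.60 in DESeq2. SGNs and glial cells differed by -1.25 (SE 1.89, limma-voom adjusted p = 0.612), and the sign turned to 0.75 without glial replicate 3. Without glial replicate 1, at 0 TPM, the difference was -5.22 and passed.

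*Erbb4* held 5.43, 7.33 and 3.81 TPM in HC libraries and 0.0749, 0.0788 and 0.223 TPM in glial libraries. Every HC library lay above every other library. *Erbb4* was 14.8-fold lower in the mean of SGNs than in HCs (log2 -3.88, SE 0.44, limma-voom adjusted p = 2.13e-07), and 15.1-fold higher in HCs than in glial cells (log2 3.91, SE 0.81, limma-voom adjusted p = 0.000576, which did not pass with sample quality weights at 0.0315). Between HCs and glial cells, 4 of the 8 genes passed (24.4% of all genes did, 16.2% as higher and 8.18% as lower in HCs), *Erbb4* higher and *Erbb2*, *Erbb3* and *Nrg3* lower in HCs. The glial level of *Nrg3* was at least 9.65-fold above HCs, and this call was lost without glial replicate 1 (limma-voom adjusted p = 0.0106). *Nrg1* differed by -1.63 (SE 0.96, limma-voom adjusted p = 0.176), by -0.26 without glial replicate 1 and by -2.55 without glial replicate 3. Over the 7 members with a fold, the median was -1.63, and over all genes 0.14.

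The sum of 4 genes listed as markers of supporting cells was, like *Egfr* and *Erbb4*, highest in HC libraries. *Epcam*, *Sox2*, *Otoa* and *Fgfr3* summed to between 290 and 327 TPM in HC libraries, between 33.9 and 61 TPM in glial libraries and between 1 and 62.2 TPM in SGN libraries, and none of the 4 was at 0 in an HC library. *Sox2* is also expressed by vestibular HCs, and the pooled HC libraries cannot tell which cells the RNA of these 4 genes came from. *Epcam* was at 131 to 144 TPM and *Otoa* at 63.5 to 74 TPM in HCs. *Fgfr3* overlapped between cell types, at 2.49 to 4.36 TPM in HCs, up to 6.01 TPM in P14 SGNs and up to 3.01 TPM in glial cells. In glial replicates 1, 2 and 3 the sum was 61, 45.8 and 33.9 TPM, where *Egfr* was 0, 1.28 and 7.42 TPM. The 5 connective tissue genes summed to between 100.4 and 108 TPM in HCs and between 167 and 296 TPM in glial cells. The part of these cells in the HC values of *Egfr* and *Erbb4* was not tested.

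In SGNs, *Erbb4* was near the limit of detection, at 0.0307 to 1.03 TPM (4 to 198 counts per library). P8 libraries held 0.66, 0.84 and 0.268 TPM, and P1 libraries 0.0817, 0.0621 and 0.0345 TPM, without overlap. The step from P1 to P8 was 3.58 (SE 0.99, limma-voom adjusted p = 0.0276). The call was lost when any 1 of the P1 replicates or P8 replicate 1 or 2 was left out (adjusted p values of 0.0601 to 0.0967) and in edgeR (adjusted p = 0.0654). The other ages held 0.41, 0.0321 and 0.212 TPM in E15.5 libraries, 1.03, 0.0381 and 0.126 TPM in P14 libraries and 0.171, 0.0728 and 0.0307 TPM in P30 libraries, of which only those of P30 lay wholly below P8. The adjusted p over any age was 0.0567 (limma). Between E15.5 and P30 it changed by -0.60 (SE 1.08, limma-voom adjusted p = 0.679). P8 libraries also held more myelin RNA (801 to 1474 TPM) than P1 libraries (70.8 to 204 TPM). Glial cells held 7178 to 9752 TPM of myelin RNA and 0.0749 to 0.223 TPM of *Erbb4*. The supporting cell markers summed to 47.9, 10.8 and 5.52 TPM at P8 and 12.8, 3.53 and 5.46 TPM at P1. P14 replicate 1, the SGN library with the most *Erbb4*, had the highest HC (107 TPM) and supporting cell (62.2 TPM) marker sums among SGN libraries. The part of other cells in the SGN values of *Erbb4* was not tested.

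The order of the 7 groups by mean TPM was led by an SGN age for *Nrg1*, *Nrg2* and *Nrg3*, by glial cells for *Erbb2* and *Erbb3* and by HCs for *Nrg4*, *Egfr* and *Erbb4*. Neighbors in the order of *Nrg1* were told apart, at an adjusted p under 0.05, only at the step from the lowest SGN age, P14, to glial cells (limma-voom adjusted p = 3.07e-06). For *Nrg3*, the steps from E15.5 to P8 SGNs (limma-voom adjusted p = 0.000877), from P30 SGNs to glial cells (limma-voom adjusted p = 8.27e-06) and from glial cells to HCs (limma-voom adjusted p = 0.000678) held. Only the step from E15.5 SGNs to glial cells held for *Nrg2* (limma-voom adjusted p = 0.018), and none held for *Nrg4*. For *Erbb2* and *Erbb3* the step from glial cells to HCs held. For *Egfr* the step from HCs to glial cells had an adjusted p of 0.0444 (limma-voom) but was lost without glial replicate 1, as given above. For *Erbb4* the step from HCs to P8 SGNs held (limma-voom adjusted p = 0.00701). On CPM with TMM scaling the leading group became P30 SGNs for *Nrg1*, E15.5 SGNs for *Nrg3* and P14 SGNs for *Nrg4*.

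Lists of 45 other genes of the pathway were counted in 4 groups, which are other EGF-family ligands (7 genes), enzymes that process the ligands (10), adaptors and the kinase cascade (20) and genes of receptor turnover and feedback (8). In the SGN fit 41 of them were tested, and 42 in the fit of all cells. Between E15.5 and P30, 3 of 41 rose and 7 fell (24.4%, against 34.6% of all genes tested), with a median of -0.14. From E15.5 to P1 only *Shc1*, an adaptor, fell (-1.37, SE 0.37, limma-voom adjusted p = 0.0264), and from P1 to P8 only *Pik3cb*, a catalytic subunit of PI3 kinase, rose (1.13, SE 0.26, limma-voom adjusted p = 0.0106), each 1 of 41. The call of *Shc1* was lost without E15.5 replicate 2 or any 1 of the P1 replicates (limma-voom adjusted p values of up to 0.07) and in edgeR, and that of *Pik3cb* without P1 replicate 1 (limma-voom adjusted p = 0.0697) and in edgeR. From P8 to P14 and from P14 to P30, limma-voom called 0 of 41, with 6 and 3 at an unadjusted p under 0.05 and 0 by edgeR and by DESeq2.

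Among the ligand-processing enzymes, *Adam19* and *Adam10*, metalloproteases that shed membrane-bound ligands, fell between E15.5 and P30. *Adam19* changed by -3.58 (SE 0.67, limma-voom adjusted p = 0.000508), from 34.2 ± 19.3 to 3.14 ± 3.65 TPM, and *Adam10* by -1.54 (SE 0.29, limma-voom adjusted p = 0.000517), while the median of the 10 was -0.10. *Adam19* changed by -4.91 without P30 replicate 1 and by -2.83 without P30 replicate 3. *Bace1*, the protease known to process neuregulin-1 on axons, was at 26.8 ± 13.9 TPM at E15.5 and 20.4 ± 5.54 TPM at P30 and did not pass. In the kinase cascade, *Pik3cb* (2.19) and *Map2k1* (2.07), the kinase MEK1, rose and *Nras* (-2.46) and *Shc1* (-1.33) fell, with a median of -0.14 over 20. *Usp8*, a deubiquitinase of receptors, rose by 1.77, and *Dusp6* (-2.67), a feedback phosphatase of ERK, and *Cblb* (-1.64), a ubiquitin ligase, fell, with a median of -0.35 over 8. The call of *Dusp6* was lost when any 1 of the 6 libraries was left out (limma-voom adjusted p values of 0.0599 to 0.141) and in edgeR. Of the 3 other EGF-family ligands tested, *Tgfa* fell (-3.24), and their median was -0.46. This call was lost without E15.5 replicate 1, P30 replicate 1 or P30 replicate 3 (-2.07), and that of *Shc1* without P30 replicate 3 (-1.07).

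Against glial cells, 2 of 42 list genes were higher and 5 lower in SGNs (16.7%, against 24.7% of all genes). Lower in SGNs were *Dusp6* (-4.73), *Gab1* (-3.84), the adaptor that links receptors to PI3 kinase, *Adam17* (-3.29), *Lrig1* (-2.33), which restrains ErbB receptors, and *Adam10* (-2.27), and higher were *Psen2* (3.42), a subunit of gamma-secretase, and *Pik3cb* (2.58). *Lrig1* lost its call without glial replicate 1 (-1.74) and was -3 without glial replicate 2, and *Psen2* was 2.42 without glial replicate 3. *Dusp6* held 93.8 ± 37.8 TPM in glial cells against 1.56 ± 1.63 to 11.2 ± 14.9 TPM over the SGN ages (SD, n = 3). At P8, 2 of 42 were higher and 4 lower (14.3%, against 20.9% of all genes), of which *Lrig1* was lost without any 1 of the P8 SGN replicates or glial replicate 1 or 3, and *Psen2* without glial replicate 3. The list medians against glial cells were -1.25 for the 4 other ligands tested, -0.32 for processing, -0.17 for the cascade and -0.80 for turnover, where limma-voom called 0 of the 4 ligands, with 2 at an unadjusted p under 0.05, 0 by edgeR and 1 by DESeq2.

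The 4 other EGF-family ligands tested differed among themselves between SGNs and HCs. Against HCs, SGNs were lower for *Btc* (-5.53), *Egf* (-3.55) and *Tgfa* (-2.57), which encode betacellulin, EGF and transforming growth factor alpha, 3 of the 4. *Hbegf*, named here after its values were seen, did not pass, at 1.63 ± 2.06 TPM in HCs, 5.82 ± 5.57 TPM in glial cells and 0.736 ± 0.73 to 8.48 ± 9.41 TPM over the SGN ages. *Tgfa* held 19.3 ± 2.79 TPM in HCs, 1.66 ± 2.38 TPM in glial cells and 0.43 ± 0.412 to 4.97 ± 1.25 TPM over the SGN ages. In all 2 of 42 list genes were higher and 4 lower in SGNs (14.3%, against 26.8% of all genes), the others being *Adam19* (7.91) and *Akt1* (2.41) as higher and *Dusp6* (-2.03) as lower. *Dusp6* lost this call without P1, P14 or P30 SGN replicate 2 or HC replicate 1 or 2, and in edgeR and DESeq2, and *Tgfa* lost it in edgeR. *Adam19* was 9.20 without HC replicate 1 and 6.15 without HC replicate 2. Between HCs and glial cells, 3 of 42 were higher in HCs and 6 lower (21.4%, against 24.4%), with *Tgfa* (3.97), *Btc* (3.40) and *Psen2* (4.2) higher, and *Adam19* (-7.65), *Adam17* (-2.87), *Dusp6* (-2.70), *Gab1* (-2.49), *Nras* (-2.13) and *Pik3r1* (-2.04) lower. The call of *Tgfa* was lost without glial replicate 1 (1.87), glial replicate 3 or HC replicate 3, and that of *Btc* without glial replicate 3 (2.11), HC replicate 1 or HC replicate 3. Both were also lost in edgeR, in DESeq2 and with sample quality weights. *Pik3r1* fell under 4-fold without HC replicate 3 or glial replicate 2. *Adam19* ranged from -8.93 to -5.89, the ends being without HC replicate 1 and without HC replicate 2, and *Psen2* was 3.20 without glial replicate 3. All values in parentheses are log2 fold changes. *Egf*, *Tgfa*, *Adam17*, *Adam19*, *Gab1* and *Lrig1* share exonic bases with a gene on the opposite strand, and their values are uncertain to that extent.

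The genes whose levels followed each member most closely over the 21 libraries were found by Pearson's r of log2(CPM + 1) among 10629 genes, given as a description, since libraries of a group share their cell type. *Nrg1* was followed most closely by *Elavl2* (r = 0.994), *Rims1* (0.99) and *Scrt2* (0.99), and *Nrg3* by *Stmn4* (0.993) and *Tmem132e* (0.985). *Stmn4* held 145 TPM at E15.5 and 21 TPM at P30 in mean. *Erbb3* was followed by *Stard13* (0.959), *Tead1* (0.959) and *Egr3* (0.956), and *Erbb2* by *Enpp1* (0.946), *Ctnna1* (0.945) and *Axl* (0.939), all highest in glial cells. *Egfr* was followed by *Crybg1* (0.909), *B4galt1* (0.908) and *Ggta1* (0.899), and *Erbb4* by *Plscr2* (0.933), *Gxylt2* (0.873) and *Dnah11* (0.869), all highest in HCs. The closest genes were less close for *Nrg2* (*Stoml1*, 0.845, *Prdx2*, 0.836, and *Cyp4x1*, 0.831) and *Nrg4* (*Ccnq*, 0.817, *Trmt10b*, 0.788, and *Cptp*, 0.782). Exonic bases shared with another gene make *Stard13*, *Ctnna1*, *Crybg1*, *Dnah11*, *Prdx2* and *Cyp4x1* uncertain too.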

How the data were processed

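RNA from picked cells was amplified with the Ovation RNA-Seq System V2. The authors mapped reads to mm10 with STAR 2.4.0i and counted them per gene of GENCODE vM15 with featureCounts, and they deposited whole-number counts with a gene length and no normalization. Strand and multimapping settings are not given in the sources used here. TPM was computed from the counts and deposited lengths, and CPM from totals on genes. Among counts of 1 to 20, 67.9% were even (median of the libraries), so that 1 count may not be 1 molecule. A group at 3 counts or fewer in each library was taken as a bound. Bounds take the counts as they stand and do not cover the spread between libraries. Amplified reads without molecular identifiers are not independent molecules.

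Counts were scaled with TMM (edgeR 4.0.16) and fitted with limma-voom (limma 3.58.1, R 4.3.3), two-sided with BH adjustment over all genes tested, following the methods of the study. Ages were compared over the 15 SGN libraries (15113 genes) and cell types over all 21 (17531 genes), a gene being kept if each replicate of at least 1 group exceeded 1 CPM. Alternatives were library size only, DESeq2 1.42.0, edgeR's quasi-likelihood test, no filter, sample quality weights, a replicate block, only the groups compared and each replicate left out. Leaving out glial replicate 1 with P14 SGN replicate 1 was added after the data were seen. The fits were tested on simulated data. Members and lists were chosen with earlier results of these data known. Named are the 8 members, up to 3 called genes per list, comparison and direction, and for each member the 3 genes of highest r. A marker and a gene named by these rules are not reported here. Symbols came from GENCODE M21, and *Nrdc* was matched through a synonym. Exact permutation tests used scipy 1.17.1. Coordinates are from GRCm38, and sequences from RefSeq.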

Additional observations from a re-analysis of the deposited data

How the results depend on the processing

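In the comparisons with a fold change, the direction of each called member held under each alternative run. The number of members called moved by over 1.5 times in these cases. From P1 to P8 it was 2 with library size only (*Nrg3* and *Erbb4*), 0 in edgeR and 2 with the replicate block (*Erbb3* and *Erbb4*), and 0 to 1 when a replicate was left out. From P14 to P30 it was 1 in DESeq2. Over any age it was 4 in DESeq2, 4 with the replicate block and 1 to 3 when a replicate was left out. In DESeq2, *Nrg1* had no adjusted p for SGNs against HCs or glial cells, also at P8, and was not counted as lost. Values that did not pass and changed sign were *Nrg1* from E15.5 to P30 (-0.38 with library size only, -0.11 to 0.22 when a replicate was left out), *Egfr* in SGNs against glial cells (0.46 with the replicate block, -5.22 to 0.75 when a replicate was left out) and *Erbb2* in SGNs against HCs (-0.75 to 0.13 when a replicate was left out). The causes were not tested. On TMM-scaled CPM in place of TPM, 4 of the 6 steps in the order of groups kept their direction for *Nrg1*, *Nrg2*, *Nrg3*, *Nrg4* and *Erbb2*, 5 for *Egfr* and *Erbb3* and 6 for *Erbb4*.

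With library size only, the median over all genes moved from 0.07 to -0.07 from E15.5 to P1, from -0.01 to -0.23 from P1 to P8, from -0.02 to -0.13 from P8 to P14, from 0.02 to -0.54 for SGNs against HCs and from 0.14 to 0.63 for HCs against glial cells. The genes higher and lower became 569 and 649 against 767 and 481 from E15.5 to P1, 421 and 760 against 648 and 476 from P1 to P8, and 19 and 54 against 38 and 43 from P8 to P14. They became 1331 and 3786 against 1847 and 2847 for SGNs against HCs, and 3573 and 1020 against 2838 and 1434 for HCs against glial cells.

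The number of all genes called depended on the method. It was 552 with sample quality weights against 1248 from E15.5 to P1, 649 in edgeR against 1124 from P1 to P8, between 34 and 219 against 81 from P8 to P14 and between 2 and 110 against 9 from P14 to P30, with all libraries kept. With sample quality weights it was 2017 against 4326 for SGNs against glial cells, 1942 against 3662 at P8 and 2226 against 4272 for HCs against glial cells.

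Replicate numbers in the labels were tested as pairs through the correlation of deviations from group means. All 3 numbers exceeded 0.1 in 1 of 21 pairs of groups, P8 with P30 SGNs. Replicate 1 alone correlated at 0.249 to 0.378 in each pair among P1, P8, P14 and P30 SGNs. At each of these ages replicate 1 held the most *Egfr*, *Erbb2* and connective tissue RNA (129, 148, 68.7 and 20.5 TPM of the latter). The cause was not tested. P8 and P30 SGNs were not compared with each other but both enter the test over any age, for which the block is given above. The numbers were not used as pairs elsewhere. With the replicate block, the calls over all genes rose from 81 to 146 from P8 to P14 and from 9 to 23 from P14 to P30, and members moved as given above. With 3 libraries a group and few counts for *Erbb4*, *Nrg2* and *Egfr* in SGNs, small changes of these genes were not detectable at this depth.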
